A study of Mus musculus and Meriones unguiculatus with 4 samples.

Results

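Keratins of basal, simple and oral epithelium were described in the enamel knot region of gerbil and mouse tooth germs, measured by RNA sequencing. The knot is a cluster of signalling cells within the dental epithelium. The 10 genes were taken by symbol, ignoring case: the type II keratin genes Krt5, Krt8 and Krt4 and the type I keratin genes Krt14, Krt15, Krt17, Krt18, Krt19, Krt13 and Krt10. They stand among 13322 genes whose symbols matched between the tables of the 2 species, and 9 of them are in both tables. No row of the gerbil table has the symbol Krt17. All 9 passed the filter on low values that left 10159 genes for the comparison. The set was selected on the levels and the gerbil to mouse differences that an earlier analysis of these 4 libraries had given, so every difference below is a description, with no test.

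The gerbil group held 2 wild-type samples at embryonic day 15, and the mouse group held 2 wild-type samples at embryonic day 13, labelled as epithelial cells. Tooth germs from the mandible were fixed in paraformaldehyde and sectioned frozen, and the knot region was cut out by laser microdissection. How many animals a sample holds is not stated in the labels, and the spread between samples may be technical. The libraries are named by the ends of their column names, E23 and E21 for gerbil and SEK and PEK for mouse. What these endings mean is not in the labels, and E23 and E21 go against the embryonic day 15 of the gerbil labels. Should they stand for separate stages or places in the tooth germ, the pair of libraries would not be replicates, and the SDs and SEs below would contain that contrast.

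Keratins are the intermediate filament proteins of epithelial cells, and a filament is built from pairs of 1 type I and 1 type II chain. Cells of the basal layer of stratified epithelia make keratin 5 with keratin 14 or 15, simple epithelia make keratin 8 with keratin 18 or 19, and the suprabasal layers of the non-cornified oral lining make keratin 4 with keratin 13. In the developing tooth the dental epithelium grows from the oral epithelium, which carries a flattened surface layer, the periderm.

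The loci of 6 of the genes lie in the type I cluster on mouse chromosome 11, between positions 99385254 and 100261029 of GRCm38. The other 4 lie in the type II cluster on chromosome 15, between 101707070 and 102032026. Krt18 (ENSMUSG00000023043) is the type I gene of the chromosome 15 cluster and lies 23873 bases from its partner Krt8 (ENSMUSG00000049382). In gerbil the same pair shares a scaffold, with 22840 bases between them. All 10 mouse loci overlapped the protein-coding gene of the same symbol in GENCODE M21. The Krt8, Krt10 and Krt5 loci also overlap an annotated RNA gene on the other strand (Gm36026, Gm11940 and Gm44323). The labels do not state whether reads were counted by strand, so reads of such partners cannot be told apart. Keratin genes within a cluster are similar in sequence, and reads shared between close paralogs make the single values of Krt5, Krt14 and Krt17 uncertain.

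Mouse promoter windows are shown for 4 genes on which the results turn: Krt13, which with Krt4 differed between the libraries of both species, Krt5, the most abundant keratin of the gerbil table, and the neighbours Krt8 and Krt18, whose ratio separated the species. The windows are from RefSeq with the build GRCm38.p6 and run 5′ to 3′ on the strand of the gene, from 250 bases before the annotated start to 50 after it. They are chr11:100121517-100121816 (minus strand, Krt13), chr15:101712856-101713155 (minus, Krt5), chr15:102004293-102004592 (minus, Krt8) and chr15:102027966-102028265 (plus, Krt18). Capitals mark matches on either strand to 5 motifs. The TATA box was searched as TATAAA, and a looser form of it, chosen after the windows had been read, as ATAAANG, which can overlap the first. The GC box was searched as GGGCGG and the motif of AP-2 factors, known regulators of epithelial genes, as GCCNNNGGC. The motif of AP-1 factors, which act in differentiating keratinocytes, was searched in a loose form as TGANTCA, with any base at its centre.
Krt13: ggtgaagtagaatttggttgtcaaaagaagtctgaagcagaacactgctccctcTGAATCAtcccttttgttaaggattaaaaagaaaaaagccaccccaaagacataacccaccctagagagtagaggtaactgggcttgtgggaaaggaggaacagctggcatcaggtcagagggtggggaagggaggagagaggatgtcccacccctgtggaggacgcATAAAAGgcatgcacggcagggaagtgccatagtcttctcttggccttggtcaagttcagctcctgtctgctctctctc
Krt5: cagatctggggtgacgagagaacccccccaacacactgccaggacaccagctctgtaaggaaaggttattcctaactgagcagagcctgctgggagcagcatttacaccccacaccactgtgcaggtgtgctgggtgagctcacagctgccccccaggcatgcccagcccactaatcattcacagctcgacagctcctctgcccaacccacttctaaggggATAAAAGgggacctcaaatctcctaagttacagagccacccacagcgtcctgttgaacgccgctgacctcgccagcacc
Krt8: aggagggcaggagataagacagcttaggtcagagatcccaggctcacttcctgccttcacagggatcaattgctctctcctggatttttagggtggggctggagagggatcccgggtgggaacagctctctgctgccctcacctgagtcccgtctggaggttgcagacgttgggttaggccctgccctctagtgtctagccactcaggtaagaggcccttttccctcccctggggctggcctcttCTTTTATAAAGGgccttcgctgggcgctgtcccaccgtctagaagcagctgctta
Krt18: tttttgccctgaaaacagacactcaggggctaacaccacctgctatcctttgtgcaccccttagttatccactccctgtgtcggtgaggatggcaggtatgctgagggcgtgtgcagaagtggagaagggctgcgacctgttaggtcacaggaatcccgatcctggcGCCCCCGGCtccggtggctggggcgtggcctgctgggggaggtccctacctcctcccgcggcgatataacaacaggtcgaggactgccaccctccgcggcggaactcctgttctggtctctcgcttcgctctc
The looser TATA form was found once in the Krt13 window and once in the Krt5 window, in both at -29 from the start. In the Krt8 window it was found at -5 and 0, overlapping the TATA box at -3 and -1, so the capitals there form 1 run. The Krt13 window alone of the 4 matched the loose AP-1 form, at -196 with A at its centre. The Krt18 window alone held the AP-2 motif, at -83. Of all 32851 windows of that length, 13.0% held the looser TATA form, 13.6% the TATA box, 7.81% the AP-1 motif, 16.6% the AP-2 motif and 35.7% the GC box, which none of the 4 held. A match is a run of letters and not a shown binding site. RefSeq windows were found for 6 of the 10 genes.

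Values are deposited per length, as TPM for gerbil and FPKM for mouse. To set the tables side by side, the matched genes of each library were rescaled to sum to 1000000, and the rescaled value is called a level. The rescaling raised gerbil values more than mouse values. Before it, the TPM of each gerbil library summed to 1000000 over all rows, and most of that sum lay in rows without a match. Krt8 went from 18.2 TPM to a level of 137 in gerbil E21, and from 22.1 FPKM to 50.2 in mouse PEK. Differences between species thus rest on this step as well as on the deposited values. Log2 differences between species were taken on log2(level + 1) after the trend with transcript length had been removed from each library, so a ratio of printed levels can differ from the log2 difference beside it. A gene was called higher in a species where its lower library exceeded the higher library of the other species by 2-fold or more. Of the 9 keratins compared, 3 were called higher in gerbil (Krt5, Krt8 and Krt19), against 13.4% of all genes compared. A further 2 were called higher in mouse (Krt18 and Krt10), against 14.7% of all genes. The genes called in either direction were 5 of 9, against 28.1% of all genes.

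**Figure D1:**
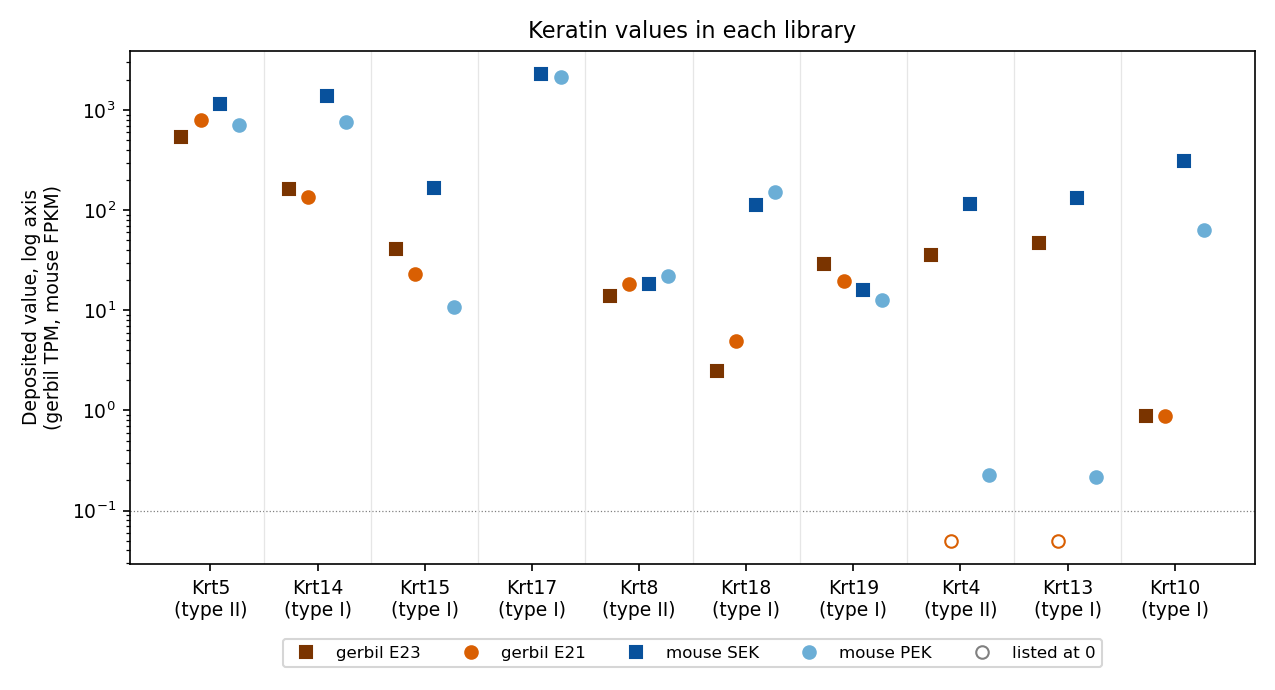
Deposited value of each keratin in the gerbil libraries (E23, E21; TPM) and the mouse libraries (SEK, PEK; FPKM) on a log axis, 1 point per library; open circles below the dotted line are values listed at 0, and Krt17 has no gerbil row. Krt5 and Krt14 are high in all 4 libraries, and Krt4 and Krt13 are listed at 0 in gerbil E21 and are near 0.2 FPKM in mouse PEK.

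Of the basal layer keratins, Krt5 and Krt14 were among the 76 highest of the 13322 matched genes in all 4 libraries, and Krt15 varied more. Krt5 (ENSMUSG00000061527), the type II chain of basal cells, was at 539.6 and 801 TPM in gerbil E23 and E21, against 1161 and 714 FPKM in mouse SEK and PEK. Among the 13322 matched genes Krt5 ranked 12 and 2 in gerbil E23 and E21 and 39 and 68 in mouse SEK and PEK. Its levels were 4586 and 6043 in the gerbil libraries, both above the mouse levels of 2378 and 1624. The means were 5314 ± 1030.1 for gerbil and 2001 ± 534 for mouse (SD, n = 2 each), and the corrected log2 difference was 1.47 ± 0.27 (SE), a 2.77-fold difference. The nearest gerbil and mouse libraries were 1.09 apart on the log2 scale, just over the 1 needed for the call. The call ended without the length correction (1.42), with no filter on low values (1.45), with equal median levels (1.41) and relative to the epithelial genes Epcam and Cdh1 (1.08), and the direction was kept in all 4.

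The gerbil row with the symbol Krt5 is described in the gerbil table as keratin, type II cytoskeletal 6A. It joins 3 transcripts over 20389 bases, while the mouse Krt5 locus spans 5822 bases. Reads of more than 1 type II keratin gene may therefore stand in that row, and the gerbil Krt5 values carry this doubt in every comparison here. In the mouse table, Krt6a, a type II keratin of stressed and appendage epithelium, has its own row at 29.6 and 4.89 FPKM in SEK and PEK.

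Krt14 (ENSMUSG00000045545), the main type I partner of keratin 5, was at 162 and 137 TPM in gerbil E23 and E21, against 1388 and 765 FPKM in mouse SEK and PEK. It ranked 57 and 76 among the matched genes in the gerbil libraries and 22 and 62 in the mouse libraries. Levels were 1373 and 1029.9 in gerbil, both below the mouse levels of 2843 and 1739. After the length correction the libraries of the species overlapped, and the log2 difference was -0.34 ± 0.30 (SE), not called. Its sign depended on the settings, from -0.90 to 0.16.

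Krt15 (ENSMUSG00000054146), a type I keratin of basal cells that also pairs with keratin 5, was at 41.3 and 23.2 TPM in gerbil E23 and E21, against 167 and 10.7 FPKM in mouse SEK and PEK. Mouse SEK stood 15.6-fold above mouse PEK, and the gerbil levels were 351 and 175 in E23 and E21, against 341 and 24.3 in mouse SEK and PEK, with gerbil E21 between the mouse libraries. The log2 difference of 1.98 ± 1.81 was not called. Without mouse SEK it was called higher in gerbil (3.72).

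Krt17 (ENSMUSG00000035557), a type I keratin of embryonic ectoderm and of hair and gland epithelium, had the highest value of the 10 genes in both mouse libraries, at 2294 and 2163 FPKM in SEK and PEK. These values differed 1.06-fold. The gerbil table has a row with no symbol that it describes as keratin 16, at 318 and 512 TPM in E23 and E21. That row holds 6 transcripts over 14901 bases, and it is not assigned to a gene here. The mouse Krt16 row was at 2.95 and 1.06 FPKM in SEK and PEK.

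The keratins of simple epithelium went in different directions between the species. Krt8, the type II chain, was at 13.8 and 18.2 TPM in gerbil E23 and E21, against 18.2 and 22.1 FPKM in mouse SEK and PEK. Its levels of 117 and 137 in gerbil lay above those of 37.4 and 50.2 in mouse, with means of 127 ± 14.0 for gerbil and 43.8 ± 9.08 for mouse (SD, n = 2 each). The log2 difference was 1.78 ± 0.36 (SE), a 3.43-fold difference, and the call ended relative to Epcam and Cdh1 (1.39). The deposited Krt8 values were not higher in gerbil, so this call rests on the rescaling.

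Krt18, the type I partner of keratin 8, was at 2.48 and 4.97 TPM in gerbil E23 and E21, against 112 and 152 FPKM in mouse SEK and PEK. The gerbil levels of 21.1 and 37.5 were far below the mouse levels of 230.1 and 346, without overlap. Means were 29.3 ± 11.6 in gerbil and 288 ± 82.2 in mouse, and the corrected log2 difference was -2.39 ± 0.66 (SE, n = 2 each). Krt18 ranked 7048 and 5915 among the matched genes in gerbil E23 and E21 and 924 and 487 in mouse SEK and PEK.

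Krt19 (ENSMUSG00000020911), a type I keratin without the tail domain that is found in simple epithelia and the periderm, was at 29.3 and 19.8 TPM in gerbil E23 and E21, against 15.96 and 12.6 FPKM in mouse SEK and PEK. Both gerbil levels, 249 and 149, lay above both mouse levels, 32.7 and 28.7. The means were 199 ± 70.6 for gerbil and 30.7 ± 2.801 for mouse (SD, n = 2 each), and the log2 difference was 3.30 ± 0.36 (SE), the highest of the 9 keratins. It stayed called under every setting tried, between 2.61 and 3.804.

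The suprabasal keratins differed between the libraries of a species. Krt4 (ENSMUSG00000059668), the type II chain of the oral and oesophageal lining, was at 35.8 TPM in gerbil E23 and listed at 0 in gerbil E21, and at 116 and 0.225 FPKM in mouse SEK and PEK. Krt13 (ENSMUSG00000044041), its type I partner, was at 46.6 TPM in gerbil E23 and listed at 0 in gerbil E21, and at 134 and 0.216 FPKM in mouse SEK and PEK. In each species 1 library was high and the other at or near 0 for both genes, so the species overlapped and neither gene was called. Without gerbil E21, Krt13 was called higher in gerbil (4.88).

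Krt10 (ENSMUSG00000019761), a type I keratin of the suprabasal layers of cornified epidermis, was at 0.880 and 0.890 TPM in gerbil E23 and E21, against 309 and 63.7 FPKM in mouse SEK and PEK. Its levels of 7.48 and 6.71 in gerbil lay below those of 633 and 145 in mouse. The log2 difference was -5.11 ± 1.03 (SE, n = 2 each), the lowest of the 9 keratins. Krt1, the type II partner of keratin 10 and not among the 10 genes, was at levels of 6.20 and 8.44 in gerbil E23 and E21 and 505 and 9.90 in mouse SEK and PEK. Mouse PEK lay less than 2-fold above the gerbil libraries for Krt1, which was not called (-3.34 ± 2.72).

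**Figure D2:**
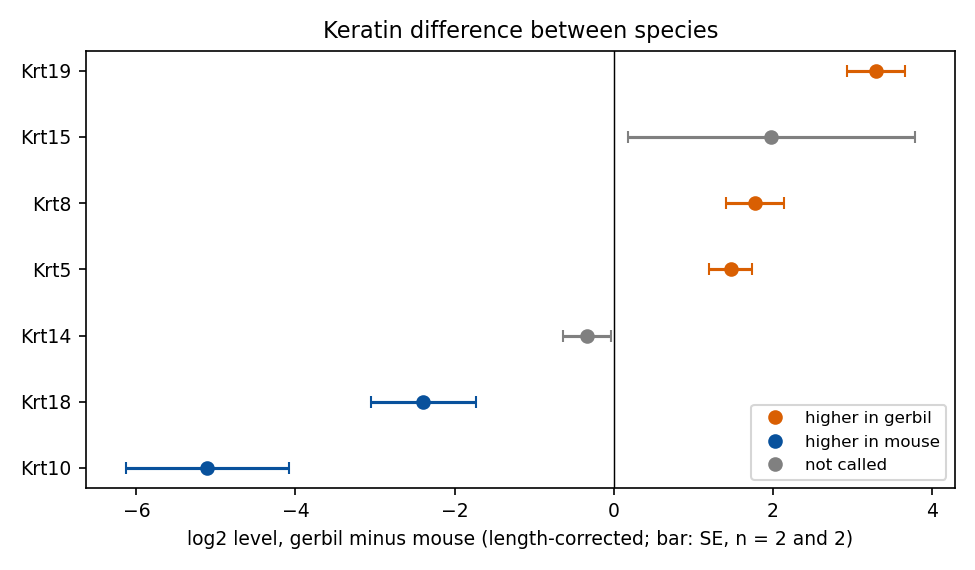
Log2 difference of the length-corrected level, gerbil minus mouse, for 7 keratins, with SE bars from the 2 libraries per species; orange marks genes called higher in gerbil, blue genes called higher in mouse and grey genes not called. Krt19 lies at 3.30, Krt18 at -2.39 and Krt10 at -5.11. Krt4 and Krt13 are not drawn because the libraries of each species lie far apart.

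Because the authors normalized the tables separately, the ratio of a type II gene to a type I partner within a library is free of the scaling between tables. Krt5 to Krt14, on deposited per-length values, was 3.34 and 5.87 in gerbil E23 and E21, against 0.837 and 0.934 in mouse SEK and PEK. The type II chain gene was thus above its partner in both gerbil libraries and slightly below it in both mouse libraries, and the log2 ratio differed by 2.32 ± 0.41 (SE, n = 2 each), or 5.01-fold. On length-corrected levels the log2 difference was smaller, at 1.81. The doubt about the gerbil Krt5 row bears on this ratio.

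Krt8 to Krt18 was 5.56 and 3.65 in gerbil E23 and E21, against 0.162 and 0.145 in mouse SEK and PEK. The order of the 2 chain genes was opposite in the species, in both libraries of each, and the log2 ratio differed by 4.88 ± 0.31 (SE, n = 2 each), or 29.4-fold. On length-corrected levels with the pseudocount of 1 the difference was 4.17, and leaving out 1 library gave 4.57 to 5.18. Krt8 to Krt19 ran the other way, at 0.471 and 0.919 in gerbil E23 and E21 and 1.14 and 1.75 in mouse SEK and PEK (log2 difference -1.10 ± 0.57, and -1.52 on length-corrected levels). The libraries of the species did not overlap in 3 of the 5 ratios, with no minimum gap asked. How often other gene pairs are separated in this way was not computed, so the count is not a result about keratins.

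The other 2 ratios did not separate the species. Krt5 to Krt15 was 13.1 and 34.6 in gerbil E23 and E21, inside the mouse range of 6.97 in SEK to 66.7 in PEK (log2 difference -0.02 ± 1.78). Krt4 to Krt13 was 0.769 in gerbil E23, could not be formed in gerbil E21, and was 0.867 and 1.04 in mouse SEK and PEK. The ratio thus stayed between 0.769 and 1.04 in the libraries in which the pair was listed above 0, although mouse PEK had 0.225 and 0.216 FPKM and mouse SEK 116 and 134 FPKM.

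**Figure D3:**
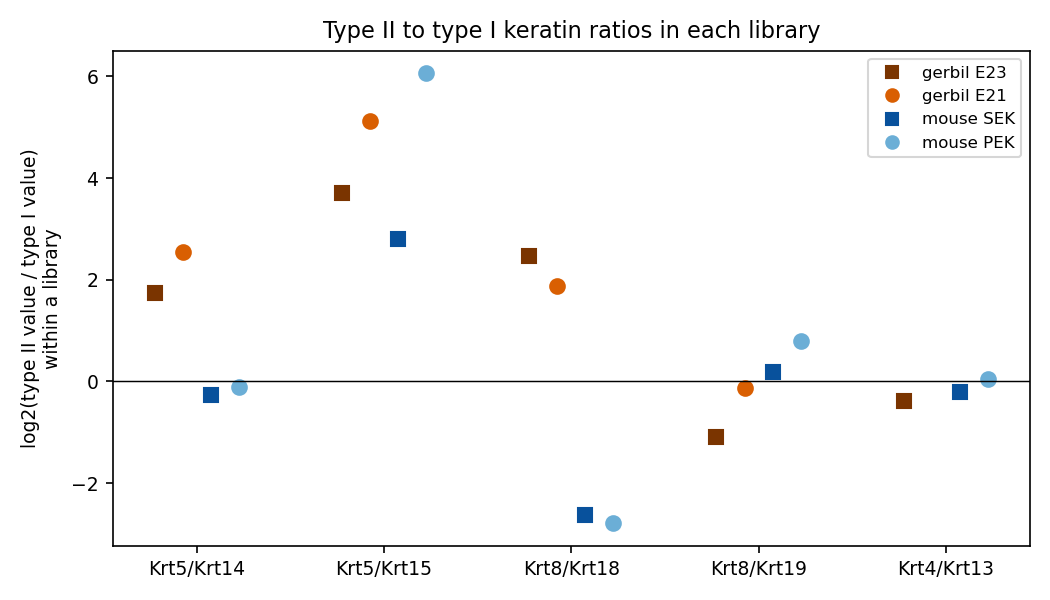
Log2 ratio of the deposited value of a type II keratin gene to that of a type I partner within each gerbil library (E23, E21) and mouse library (SEK, PEK), 1 point per library; the line at 0 marks equal values. Krt8/Krt18 lies above 0 in both gerbil libraries and below it in both mouse libraries, and Krt4/Krt13 has no point for gerbil E21, where both genes are listed at 0.

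Summed over the members that each table lists, the type I to type II balance was 0.479 and 0.226 in gerbil E23 and E21, against 3.41 and 4.30 in mouse SEK and PEK, a log2 difference of -3.54. The difference was smaller when rows without a counterpart were left out or matched. Over the members in both tables the balance was again 0.479 and 0.226 in gerbil but 1.64 and 1.36 in mouse (log2 difference -2.18). With the gerbil row described as keratin 16 counted as type I it was 1.02 and 0.851 in gerbil, against 3.41 and 4.30 in mouse (-2.04). Both of these alternatives were added after the data had been seen. Krt5 made up 61.9% and 79.7% of the members' summed TPM in gerbil E23 and E21 and 20.3% and 18.3% of their summed FPKM in mouse SEK and PEK, where Krt17 made up 40.1% and 55.4%.

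The libraries of a species were also set against each other, with 1 library a side and therefore no test. In mouse, 4 of the 9 keratins were at least 4-fold higher in SEK than in PEK on the corrected scale, against 1.54% of all genes. They were Krt4 (log2 difference 7.22), Krt13 (7.20), Krt15 (3.47) and Krt10 (2.05, just over the 2 needed, and 1.93 relative to Epcam and Cdh1). None of the 9 was 4-fold lower in SEK, against 1.12% of all genes. In gerbil, 2 of the 9 were 4-fold higher in E23 than in E21, against 1.85% of all genes, and none was 4-fold lower, against 0.463%. These 2 were Krt13 (8.63) and Krt4 (8.29), with E21 listed at 0, so the differences depend on the pseudocount and are no fold.

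Among the 10159 genes, Krt4 and Krt13 ranked 3 and 4 by the difference SEK minus PEK and 2 and 1 by the difference E23 minus E21. Genes 4-fold higher in both comparisons numbered 23, which is 0.226% of all genes, 14.7% of the 156 genes higher in SEK and 12.2% of the 188 genes higher in E23. By the smaller of the 2 differences Krt4 and Krt13 came first and second, and the third, Sprr1a, which encodes a cornified envelope precursor, had 4.12. The other keratins moved less in gerbil: Krt15 was 1.02 higher in E23, Krt10 was 0.16 higher, and Krt5, Krt14, Krt8, Krt18 and Krt19 lay between -0.87 and 0.70. In mouse the same 5 genes lay between -0.99 and 0.44.

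**Figure D4:**
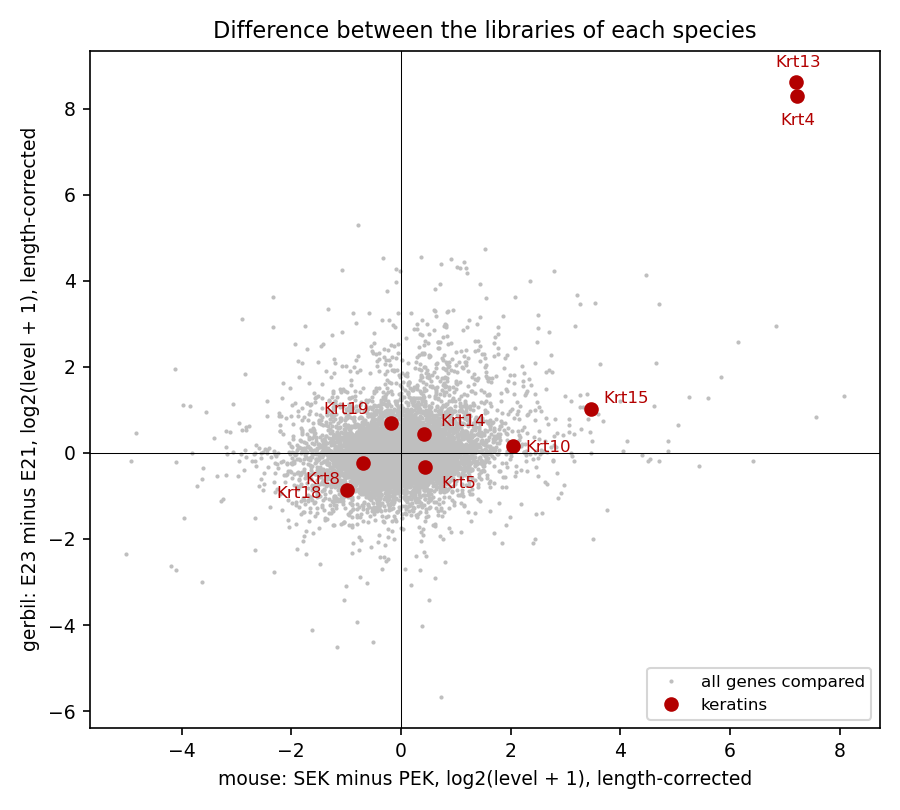
Log2 difference between the libraries of each species on the length-corrected log2(level + 1) scale, with mouse SEK minus PEK on the x axis and gerbil E23 minus E21 on the y axis; grey points are the 10159 genes compared and red points the 9 keratins. Krt4 and Krt13 lie apart at the upper right, at 7.22 and 8.29 and at 7.20 and 8.63, and Krt15 and Krt10 lie to the right near the x axis.

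Markers of other cells also differed between the libraries of a species, not all in the same direction or to the same degree. Their part in the keratin differences between libraries was not tested. Periderm and suprabasal genes (5 of 10 listed could be compared) had a summed level of 284 and 275 in gerbil E23 and E21 and of 1381 and 457 in mouse SEK and PEK, and 2 of the 5, Sprr1a and Gabrp, were at 0 in E21. Lgals7, at 236 and 256 in E23 and E21, made up most of the gerbil sums. Sprr1a (4.12), Gabrp (1.33, at a level of 1.27) and Krt7 (0.95) were higher in E23, and Krt1 (-0.30) and Lgals7 (-0.31) lower. In mouse Krt1 was at 505 and 9.90 in SEK and PEK, and only Gabrp (-0.83) was lower in SEK. Endothelial genes (4 of 5) summed to 103 and 1.13 in gerbil E23 and E21 and to 13.2 and 5.31 in mouse SEK and PEK, with Emcn at 0 in E21. All 4 were 4-fold higher in E23. Mesenchymal genes (10 of 10) summed to 3886 and 1946 in gerbil E23 and E21 and to 757 and 696 in mouse SEK and PEK. Of the 10, 2 were 4-fold higher in E23 (Lum and Postn) and 2 in SEK (Col1a1 and Col3a1), while Prrx1 (-1.70) and Twist1 (-1.45) were lower in SEK. Epithelial genes other than keratins (11 of 12) summed to 2160 and 2474 in gerbil E23 and E21 and to 3436 and 2991 in mouse SEK and PEK, lower in E23 but higher in SEK. In bulk RNA, fewer cells of a type and less RNA per cell cannot be told apart.

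Between the species, muscle genes (5 of 5) summed to 15.0 and 11.1 in gerbil E23 and E21, against 402 and 133 in mouse SEK and PEK, with Mylpf at 0 in E21. Blood and immune genes (all 5 listed, 4 of which passed the filter) summed to 26.9 and 5.96 in gerbil E23 and E21, against 10.6 and 138 in mouse SEK and PEK, with Hbb-y at 0 in both gerbil libraries. The globin genes Hbb-y (103) and Hba-x (33.6) made up most of the PEK sum. The immune genes C1qa (2.96 and 0.962) and Csf1r (1.24 and 0.222) were higher in SEK than in PEK. C1qa was called higher in gerbil (2.09 ± 0.77), but not without the length correction (0.99). Csf1r was not called (0.06 ± 1.44). Of the 11 epithelial genes, 1 was called higher in gerbil (Cdh1, 1.49 ± 0.06) and 4 higher in mouse, among them the claudin genes Cldn4 and Cldn6, with a median of -0.94 beside -0.02 over all genes. None of the 10 mesenchymal genes was called, and their median was 1.34. Without the length correction Col1a2, Col3a1, Pdgfra and Postn were called higher in gerbil and Twist1 higher in mouse. The part of these cells in the keratin differences was not tested.

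Genes whose pattern over the 4 libraries was most like that of a called keratin were taken by the Euclidean distance of the centred, corrected log2 levels. The 3 nearest to Krt5 were Mybl1 (0.06), Tmem170 (0.09) and Hsd17b11 (0.12), and those nearest to Krt8 were Usp54 (0.08), Csdc2 (0.11) and Tnrc6b (0.11). Krt18 had Fsd1 (0.15), Dtx1 (0.21) and Ccdc9 (0.23) nearest, and Krt19 had Cldn20 (0.20), Bmp8b (0.28) and Il13ra1 (0.28). Nearest to Krt10 were Sln (0.24), Smyd3 (0.24) and Hal (0.26). Krt4 and Krt13, named here after their values had been seen, were each other's nearest gene at 0.63, and the next was Psca at 3.84 from Krt4 and 4.20 from Krt13. Among the keratins themselves, Krt5 and Krt8 came next closest, at 0.85, while the partners Krt8 and Krt18 were 4.20 apart.

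Other keratin genes were counted by symbol, which leaves out the gerbil rows described as keratins without one, the abundant keratin 16 row among them. The gerbil table holds 29 further rows with a keratin symbol, 24 of them above 0 and 13 above the median value of the table. The mouse table holds 42, of which 37 were above 0 and 17 above the median. Krt75, a type II keratin of hair follicles, was at 18.4 and 31.0 TPM in gerbil E23 and E21, against 2.21 and 3.92 FPKM in mouse SEK and PEK (log2 difference 4.19 ± 0.40, called higher in gerbil). Also called higher in gerbil were Krt23 (2.59 ± 0.51), Krt24 (1.79 ± 0.45), Krt35 (3.62 ± 1.62) and Krt222 (2.95 ± 0.48). The Krt24 call ended without the length correction (1.40). Krt35 was at levels of 0.632 and 11.4 in mouse SEK and PEK, so its difference varied with the mouse library. Krt7, a type II keratin of simple epithelia and periderm, was called higher in mouse (-2.65 ± 0.52), as were Krt73 (-4.44 ± 0.68) and Krt79 (-2.18 ± 1.00). Krt79 was at levels of 16.6 and 66.2 in mouse SEK and PEK. Krt1 differed between the mouse libraries, at 247 and 4.35 FPKM in SEK and PEK, but not in that direction between the gerbil libraries, at 0.730 and 1.12 TPM in E23 and E21. Krt78, a type II keratin, was 4-fold higher in both SEK (2.701) and E23, at levels of at most 11.9.

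Proteins that anchor keratins at desmosomes and hemidesmosomes, together with regulators of keratin genes, were read from a list of 30 genes, of which 21 could be compared. Of these, 3 were called higher in gerbil, 5 higher in mouse and 13 met neither criterion, with a median of -0.89 beside -0.02 over all genes. Over all genes compared, 13.4% were called higher in gerbil and 14.7% higher in mouse, so the count higher in gerbil is near the background. Those higher in gerbil were Dsp, encoding the desmosomal linker desmoplakin (1.51 ± 0.15), Dsc2, encoding a desmosomal cadherin (1.87 ± 0.35), and Col17a1, encoding a hemidesmosomal collagen (2.53 ± 0.60). Dsp was at levels of 957 and 1111 in gerbil E23 and E21, against 63.0 and 94.1 in mouse SEK and PEK. Those higher in mouse with and without the length correction were Pkp3, for a desmosomal plaque protein (-1.90 ± 0.21), the transcription factor gene Klf5 (-2.78 ± 0.39) and the heat shock gene Hspb1 (-1.48 ± 0.31). The call of the transcription factor gene Tfap2c (-1.67 ± 0.49) ended without the correction (-1.16). Evpl, for the linker envoplakin, was at levels of 15.04 and 14.9 in gerbil E23 and E21 and 14.6 and 14.8 in mouse SEK and PEK, so its call (-1.84 ± 0.31) rests on the length correction, without which the difference was 0.03. Trp63, the transcription factor gene of basal cells, had levels of 413 and 403 in gerbil E23 and E21 and 191 and 228 in mouse SEK and PEK and was not called. Its difference was -1.10 ± 0.26 with the length correction and 0.96 without it, so the correction turned its direction. The median of the list rests on the correction too. Without it most of the 21 differences were above 0, beside a median of 0.62 over all genes. Dst (3.78) and Ppl (2.43) were then also called higher in gerbil, and Sfn (-1.97) higher in mouse.

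Other intermediate filament genes gave 1 call among the 10 that could be compared of 13 listed, against 28.1% of all genes, with a median of -0.37. Nes, encoding nestin, was at levels of 12.1 and 8.75 in gerbil E23 and E21 and 9.62 and 23.6 in mouse SEK and PEK, which overlap. It was called higher in mouse with the length correction (-2.24 ± 0.39) and not without it (-0.52). Without the correction Ina was called higher in gerbil (1.43), and most of the 10 differences were above 0. Vim, encoding the vimentin of mesenchymal cells, was at levels of 543 and 529 in gerbil E23 and E21, against 172 and 303 in mouse SEK and PEK, and was not called (1.28 ± 0.47). In every library Krt5 stood above Vim, with levels of 4586 and 6043 in gerbil and 2378 and 1624 in mouse.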

How the data were processed

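The authors deposited gerbil values as TPM per gene (25745 rows) and mouse values as FPKM per assembled locus (27632 rows), per the file headers. Tools named without roles in the submitters' processing notes are RSEM 1.3.1, STAR 2.7.1a and cutadapt 2.8, with the builds GRCm38 and mm10; the gerbil build is not named there. Mouse depth is unknown and gerbil depth was not analysed here, so no counting interval is given; 4 per-sample columns were not used. Columns show the species but no sample number.

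Genes were matched by symbols that occur once in each table, rescaled to 1000000 per library and put on log2(level + 1), which understates the change of low genes. A mean level of 1 or more and a transcript length in GENCODE M21 (GRCm38) were required, and the running median along length was removed per library in 40 bins. That correction goes back to a trend seen in these data. No test was run across tables normalized separately; an exact permutation of 2 against 2 libraries cannot give a two-sided p below 0.333. Pair ratios used deposited values with no pseudocount. Alternatives were no length correction, removal of a GC trend, a pseudocount of 0.1, no filter, other scalings and leaving out each library. The procedure was tested on simulated data with a length trend of the kind that the correction removes. That does not show how often calls err in these data. The rule for named genes took all 10 keratins, other keratins above the median of their table, called members of the lists, and the 3 genes nearest to each called keratin, and only some of the other keratins are printed. Not every called list member is reported here. Members and lists were chosen with earlier results of these data known. Python 3.11.15, numpy 2.4.6, pandas 2.3.3 and matplotlib 3.10.9 were used.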

Additional observations from a re-analysis of the deposited data

How the results depend on the processing

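Relative to Epcam and Cdh1, 3 of the 9 keratins were called in place of 5 (1 higher in gerbil, 2 in mouse). Over the 10159 genes compared, 2972 were called under that scaling in place of 2850. That scaling moved the median of all genes by -0.39 and the split of calls over all genes to 26.0% higher in gerbil and 74.0% higher in mouse, against 47.7% and 52.3%. Without the length correction the median moved by 0.63 and the split was 71.4% and 28.6%. There 4 of the 9 keratins and 4229 of the 10159 genes were called. In both settings the share of keratins called was near that of all genes. The Krt18, Krt19 and Krt10 calls were kept under all 10 alternatives. With a pseudocount of 0.1, genes 4-fold higher in SEK numbered 305 in place of 156 and those in E23 375 in place of 188, with Krt4 and Krt13 among them under each setting.

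Leaving out 1 library gave 5 to 6 called keratins, 3547 to 4022 called genes in place of 2850, and 3 to 4 separated pair ratios. The log2 difference of the type I to type II balance, gerbil minus mouse, then lay between -4.08 and -3.001. With all libraries that log2 difference was -2.18 over members in both tables and -2.04 with the keratin 16 row counted. The Krt5 to Krt15 difference was 1.61 without mouse PEK and -1.65 without mouse SEK, against -0.02, and the cause was not tested. The alternative with gerbil RPKM was not run. No paired analysis was possible because the columns carry no replicate numbers. With 1 sample left in a species, that sample is taken to stand for it.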

Other observations

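Beside Krt4, Krt13, Sprr1a and Krt78, the 23 genes at least 4-fold higher in both gerbil E23 and mouse SEK held further genes of squamous epithelium, named here after their values had been seen. Krtdap, which encodes a keratinocyte differentiation-associated protein, was at a level of 11.6 in gerbil E23 and listed at 0 in gerbil E21, and was at 1462 and 119 in mouse SEK and PEK. Ly6d, a surface antigen gene of stratified epithelium, was likewise at 11.6 in E23 and 0 in E21, and at 419 and 11.7 in SEK and PEK. Psca was at 7.82 in E23 and 144 in SEK and listed at 0 in both E21 and PEK. The same 23 genes held genes of blood vessels: Tie1 was at 12.7 and 0.151 in E23 and E21 and at 2.85 and 0.298 in SEK and PEK, and Plvap at 11.05 and 0.302 in E23 and E21 and at 28.4 and 3.26 in SEK and PEK. These genes were picked from those high in both comparisons, so their shared direction in the 2 species was set by the choice. Other genes were at least 4-fold higher in SEK but not in E23. Among them were Krt1 (5.44 in SEK, -0.30 in E23) and Calml3 (4.05 and 0.05). Lypd3 (2.45 in SEK) was another, but it was listed at 0 in both E23 and E21. All of these are differences between single libraries.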
